A study of Mus musculus with 40 samples.

Results

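Ribosomal protein genes encode the protein components of the large (Rpl) and small (Rps) ribosomal subunits, together with the acidic stalk proteins (Rplp0 to Rplp2). Genomic regions were taken as members when the nearest annotated gene, within 200 kb of the region, carried a symbol of the Rpl or Rps series, with the Rps6k kinases left out. These were 1401 of the 863771 regions deposited for 7 chromatin targets: 147 for SMC3, 127 for RAD21, 72 for NIPBL, 159 for WAPL, 190 for CTCF, 352 for H3K27ac and 354 for H3K4me1. The start sites of 90 genes with such symbols could be placed, among 23676 genes in all, and 86 of the 90 had at least 1 region. The 90 comprised 46 genes of the large subunit, 30 of the small subunit, 8 paralogs such as Rpl7l1 and Rps27l, 5 pseudogenes, and Rps19bp1, which is not a ribosomal component and was retained only because its symbol matches. The start sites of Rpl34 and Rpl34-ps1 lie 21 bp apart and share one peak, so those genes are not independent.

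All libraries came from mouse small pre-B cells, flow-sorted from the marrow, the stage of B-cell development at which light-chain genes are rearranged. The ATPneg group held wild-type cells cultured for 2 h with 126 nM Oligomycin A, an inhibitor of the mitochondrial ATP synthase; the Brwd1 knockout (KO) group and the wild-type (WT) group were not cultured, so the culture and the inhibitor cannot be told apart in any comparison of ATPneg with WT. KO and WT libraries existed for all 7 targets and ATPneg libraries for SMC3, RAD21, NIPBL and WAPL, with 2 biological replicates per group, and Brwd1, a bromodomain protein, was absent from the KO cells by their label alone, since no expression data were used here. ATPneg libraries were represented by peak lists without read counts, and KO and WT libraries by peak lists and counts.

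SMC3 and RAD21 are subunits of cohesin, the ring complex that uses ATP to extrude chromatin loops. NIPBL loads cohesin and drives its ATPase, WAPL releases it from chromatin, and CTCF is the sequence-specific factor at which extruding cohesin pauses. H3K4me1 and H3K27ac mark enhancers and, for H3K27ac, active promoters. Ribosomal protein genes are among the most strongly transcribed genes of growing cells; many of their promoters lie in CpG islands, carry GGAA sites for ETS-family factors such as GABP, and start transcription inside a run of pyrimidines.

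Promoter sequence is shown for the genes on which the peak results turn. The stretches run from 100 bases before to 20 bases after the annotated start, on the gene's strand, and are taken from RefSeq, build GRCm38.p6, whose coordinates differ from the mm9 positions of the regions. Capitals mark CCGGAAG, an ETS-type site, and AGGGGGC or AGGTGGC, short cores of the CTCF motif, all on either strand. They also mark CTTTCC or CTTTTCC in the gene's direction, if the run begins no more than 10 bases before the start. Such runs further upstream, as in Rpl4, are left in lower case. The first set had SMC3 peaks in both ATPneg libraries and a CTCF peak in both WT libraries. They lie at chr17:46782637-46782756 on the minus strand (Rpl7l1), chr4:136053374-136053493 on the minus strand (Rpl11), and, on the plus strand, chr11:101442145-101442264 (Rpl27), chr11:114668480-114668599 (Rpl38), chr11:68901466-68901585 (Rpl26), chr5:107900428-107900547 (Rpl5) and chr5:115559367-115559486 (Rplp0).
Rpl7l1: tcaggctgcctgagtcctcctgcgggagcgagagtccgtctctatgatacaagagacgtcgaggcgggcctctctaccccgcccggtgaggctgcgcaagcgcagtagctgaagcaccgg
Rpl11: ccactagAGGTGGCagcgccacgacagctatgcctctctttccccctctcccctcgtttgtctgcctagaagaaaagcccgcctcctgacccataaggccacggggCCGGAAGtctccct
Rpl27: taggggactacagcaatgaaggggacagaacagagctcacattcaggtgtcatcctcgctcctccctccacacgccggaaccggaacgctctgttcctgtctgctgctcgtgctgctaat
Rpl38: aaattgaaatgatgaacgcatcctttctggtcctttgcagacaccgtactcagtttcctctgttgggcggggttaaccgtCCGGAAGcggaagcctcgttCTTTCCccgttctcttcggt
Rpl26: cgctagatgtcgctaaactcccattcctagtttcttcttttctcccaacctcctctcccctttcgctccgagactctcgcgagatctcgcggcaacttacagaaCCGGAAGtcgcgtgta
Rpl5: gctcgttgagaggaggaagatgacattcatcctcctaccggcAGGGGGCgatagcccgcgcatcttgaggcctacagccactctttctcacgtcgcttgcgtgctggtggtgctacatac
Rplp0: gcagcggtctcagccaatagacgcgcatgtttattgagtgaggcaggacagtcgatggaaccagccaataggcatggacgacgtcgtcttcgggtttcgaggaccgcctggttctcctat

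The second set had no SMC3 peak in either ATPneg library. All 3 lie on the plus strand, at chr9:64173287-64173406 (Rpl4), chr17:24719963-24720082 (Rps2) and chr9:44407614-44407733 (Rps25).
Rpl4: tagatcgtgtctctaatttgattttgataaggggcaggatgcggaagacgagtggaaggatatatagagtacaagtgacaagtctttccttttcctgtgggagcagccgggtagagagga
Rps2: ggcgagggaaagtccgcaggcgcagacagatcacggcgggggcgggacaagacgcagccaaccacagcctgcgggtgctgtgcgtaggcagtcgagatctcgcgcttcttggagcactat
Rps25: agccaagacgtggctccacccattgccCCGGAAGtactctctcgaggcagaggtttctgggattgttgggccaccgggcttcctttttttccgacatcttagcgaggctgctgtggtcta

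Promoter sequence was matched for 65 of the 90 genes and 16320 genes in all, over 250 bases before to 50 after the start. CCGGAAG occurred in 25 of the 65 ribosomal protein promoters (38.5%), against 12.9% of all promoters. The pyrimidine run CTTTCC or CTTTTCC, counted from 10 bases before to 20 after the start, occurred in 13 of the 65, against 1.78% of all. Either CTCF core occurred in 11 (16.9%), against 20.8% of all. The E-box CACGTG was held by 6 (9.23%), against 9.26% of all, and AAGATGGC, a YY1-type motif that can overlap CCGGAAG by its AAG, by 6 (9.23%), against 3.67% of all. The median observed-to-expected CpG ratio was 0.857 in ribosomal protein promoters and 0.577 in all promoters. These letters describe the windows and are not evidence of binding.

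Some files went against their labels. The peaks in the lists labelled H3K27ac KO carry H3K4me1 in their names, those in the lists labelled H3K4me1 WT carry an H3K27ac KO stem, and the stems of NIPBL KO replicate 2 and NIPBL WT replicate 1 are exchanged. The genotype field of the KO histone samples reads wild type where their titles say KO. The histone libraries are therefore named by label throughout, and no direction between KO and WT is certain for them; since every library of a group is touched, no value without them can be given. As a check of cell identity, peaks in both libraries labelled H3K4me1 WT lay within 1 kb of the start of 10 of 10 B-cell genes, 1 of 7 T-cell genes, 0 of 6 myeloid genes and 1 of 6 erythroid genes. The libraries labelled H3K4me1 KO had 2 of the 10 B-cell genes. Reads in regions differed between groups: 4010016 and 4242112 in KO against 17667209 and 15416715 in WT for SMC3, and 7415143 and 7194434 in KO against 24962590 and 21848632 in WT for RAD21. NIPBL had 3803369 and 3784506 in KO against 17681215 and 16916106 in WT, and WAPL had 30496715 and 28011360 in KO against 21488840 and 21978527 in WT. CTCF had 4730905 and 5033230 in KO against 3880112 and 17055094 in WT. The libraries labelled H3K27ac had 23013317 and 21859316 under the KO label against 27183753 and 28358008 under the WT label, and those labelled H3K4me1 had 16048349 and 16794584 under the KO label against 21829239 and 26637928 under the WT label. Reads in regions thus moved with the genotype label for every target but CTCF, and their part in the results was not tested. They depend on enrichment as well as on sequencing depth.

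SMC3 peaks lay at the start sites of most ribosomal protein genes in ATPneg cells and at few in KO or WT cells. Of the 90 genes, 50 (55.6%, exact 95% interval 44.7 to 66.0%) had an SMC3 peak within 1 kb of the start in both ATPneg libraries, 5 in both KO libraries and 1 in both WT libraries. Over all 23676 genes the shares were 24.0% in ATPneg, 3.04% in KO and 0.583% in WT. Counted library by library, 57 and 64 of the 90 had such a peak in ATPneg, 6 and 8 in KO, and 1 and 1 in WT, and the ATPneg shares over all genes were 31.1% and 29.2%. The ranges of the groups did not overlap, and with 2 libraries against 2 the smallest two-sided exact permutation p is 0.333, so this test cannot pass 0.05 for the count. The lists held 40667 and 39437 SMC3 peaks in ATPneg, 12467 and 12323 in KO, and 41044 and 64033 in WT. The KO lists were thus the shortest and the WT lists the longest, and the part of list length in these counts was not tested. Counting at start sites was chosen after the data had been seen. At the deposited SMC3 regions within 1 kb of a ribosomal protein start, 9 of 9 overlapped a peak in both ATPneg libraries, 5 in both KO libraries and 1 in both WT libraries. Over all such promoter regions the shares were 72.0% in ATPneg, 42.2% in KO and 7.89% in WT, but every KO and WT peak lies in a region while many ATPneg peaks lie in none, so the regions follow the KO and WT lists.

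**Figure D1:**
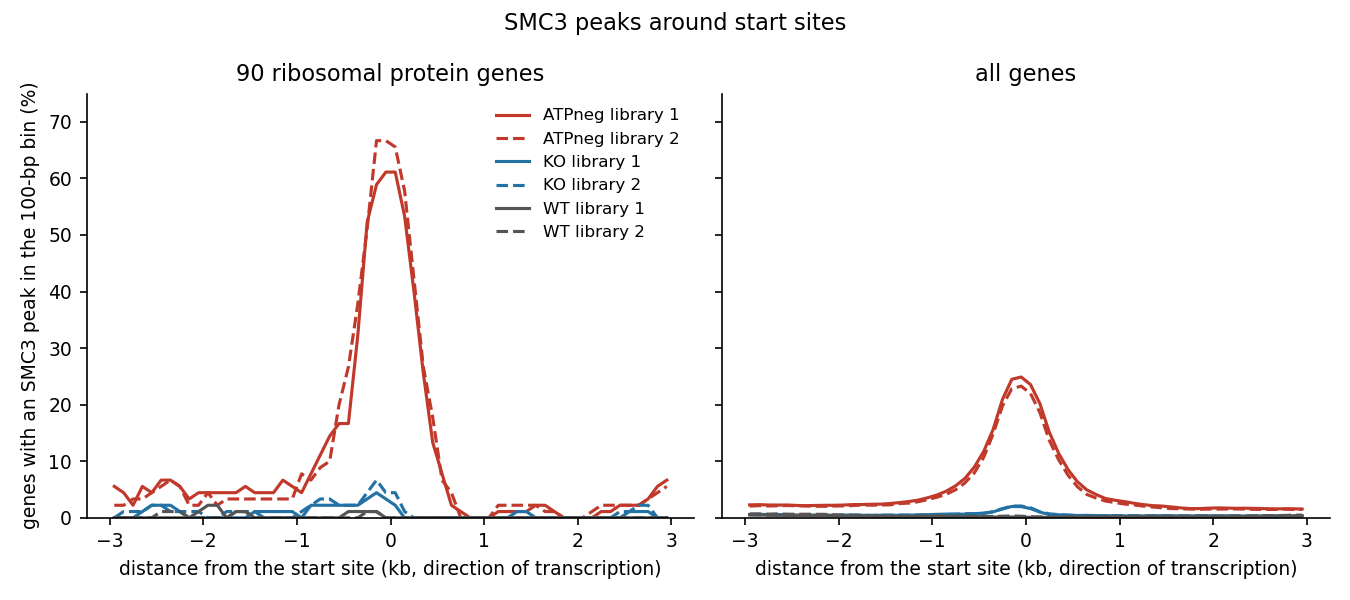
Share of genes (percent, vertical axis) with an SMC3 peak over each 100 bp bin from 3 kb upstream to 3 kb downstream of the start (kb, horizontal axis), for the 90 ribosomal protein genes (left) and all genes (right), 1 line per library in ATPneg, KO and WT cells. For ribosomal protein genes the ATPneg lines peak just upstream of the start, at 61.1% and 66.7%, and the KO and WT lines stay low.

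The ATPneg peaks lay close to the start. The bin with the largest share of genes was 0 to 100 bp upstream in ATPneg replicate 1 (55 of 90 genes, 61.1%) and 100 to 200 bp upstream in ATPneg replicate 2 (60 of 90, 66.7%). The median centre of each gene's best peak lay 36 and 65 bp upstream, with median widths of 605 and 634 bp, against 394 and 390 bp for all peaks of the same lists. Of the 50 genes, 48 had a peak within 200 bp of the start in both libraries, against 4680 of 5686 over all genes. The peaks scored somewhat below the middle of their lists. The median best score was 9.77 and 10.2 on the peak caller's scale as the authors deposited it. For all peaks of the same lists it was 12.2 and 12.1. When only peaks scoring at least 2 times the lowest score were counted, 19 of the 90 genes remained, against 2566 of all 23676 genes.

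Genes of both ribosomal subunits shared the peaks. They were present in both ATPneg libraries at 29 of 46 large-subunit genes, 16 of 30 small-subunit genes, 3 of 8 paralogs (Rpl36al, Rpl7l1 and Rps27l), 1 of 5 pseudogenes (Rpl34-ps1) and at Rps19bp1. A further 21 genes had a peak in 1 ATPneg library, among them Rpl12, Rpl22, Rpl30, Rplp2, Rps3, Rps6 and Rps7. Among the core subunit genes without a peak in either library were Rpl4, Rpl9, Rpl35a, Rpl37a, Rpl39, Rps2, Rps10 and Rps25. Of their relatives, the paralogs Rpl10l, Rpl22l1, Rpl39l, Rpl3l and Rps4y2 and 4 of the 5 pseudogenes had none either. In KO cells the 5 genes with a peak in both libraries included Rpl11, Rpl38, Rpl7l1 and Rps19. The single gene in WT cells was Rps29, whose region has unusually many reads in the input.

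Other gene groups of the translation machinery had such peaks too, with the smallest share at ribosome biogenesis genes. Peaks in both ATPneg libraries were found at 11 of 17 genes for translation factors with pyrimidine-run messages, 39 of 76 mitochondrial ribosomal protein genes (51.3%), 9 of 25 ribosome biogenesis genes, 5 of 7 small nucleolar RNA host genes, and 3 of 4 ribosomal genes whose symbols fall outside the Rpl and Rps pattern. None of these genes had an SMC3 peak in both WT libraries. Of lineage genes, 0 of 10 B-cell, 0 of 7 T-cell, 0 of 6 myeloid and 2 of 6 erythroid genes had one in ATPneg. Among genes whose promoters had a CpG ratio of 0.8 or more, 22 of 40 ribosomal protein genes (55.0%) and 43.4% of 4501 genes in all had the peak. In the range 0.6 to 0.8 the counts were 8 of 16 ribosomal protein genes and 36.9% of 3370 genes in all. From 0.4 to 0.6 they were 5 of 7 ribosomal protein genes and 24.7% of 2333 genes in all, and under 0.4 they were 0 of 2 ribosomal protein genes and 7.01% of 6116 genes in all.

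Among the ribosomal protein genes, the highest SMC3 scores in ATPneg cells belonged to those that also carried CTCF. In WT cells 20 of the 90 genes had a CTCF peak within 1 kb of the start in both libraries (7.33% of all genes did), and all 20 had SMC3 peaks in both ATPneg libraries; over all genes this held for 1585 of 1735 (91.4%). In KO cells CTCF peaks were found at 25 of the genes (10.9% of all genes), of which 23 had the SMC3 peaks. Of the 50 genes with SMC3, 20 (40.0%) had CTCF in WT, against 27.9% over all genes with SMC3. The median best SMC3 score was 23.1 and 19.3 in the ATPneg libraries for the 20 genes with CTCF, with ranges of 5.35 to 86.2 and 9.27 to 46.2. For the 30 genes without CTCF it was 7.79 and 8.97, with ranges of 5.23 to 13.4 and 5.37 to 19.5. The ranges overlap, and the 14 genes with the highest mean scores all had CTCF. Scores were not split in this way over all genes, so the difference is not shown to be particular to ribosomal protein genes. Rpl7l1, a paralog of Rpl7 that acts in ribosome biogenesis, had the highest scores, 86.2 and 46.2. Rps19, whose human counterpart is the gene most often mutated in Diamond-Blackfan anaemia, had 40.6 and 42.0. Rpl11 (48.9 and 38.8), Rpl36 (40.2 and 39.0), Rpl27 (30.6 and 36.7), Rpl38 (36.4 and 26.8), Rpl10a (31.8 and 28.9) and Rpl26 (28.3 and 20.1) also scored high, given as library 1 and library 2. Further genes with CTCF were Rpl37 at 23.1 and 14.8, Rplp0 at 23.0 and 13.9, Rpl5 at 19.2 and 20.4 and Rpl13a at 17.4 and 15.2. Replicates kept a similar order among these genes, with Rpl7l1 first in each. Rps26 was the leading gene without CTCF, at 19.5 in replicate 2. The CTCF cores were found in 4 of the 15 promoters with CTCF peaks that were matched to sequence (26.7%) and in 7 of the other 50. Among the sequences printed above, Rpl11 and Rpl5 hold such a core, and Rpl7l1, Rpl27, Rpl38, Rpl26 and Rplp0 hold none within the stretch shown. CCGGAAG was held by 34.3% of the 35 matched promoters with SMC3 peaks and by 43.3% of the 30 without, so it was not more frequent at the genes with peaks.

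**Figure D2:**
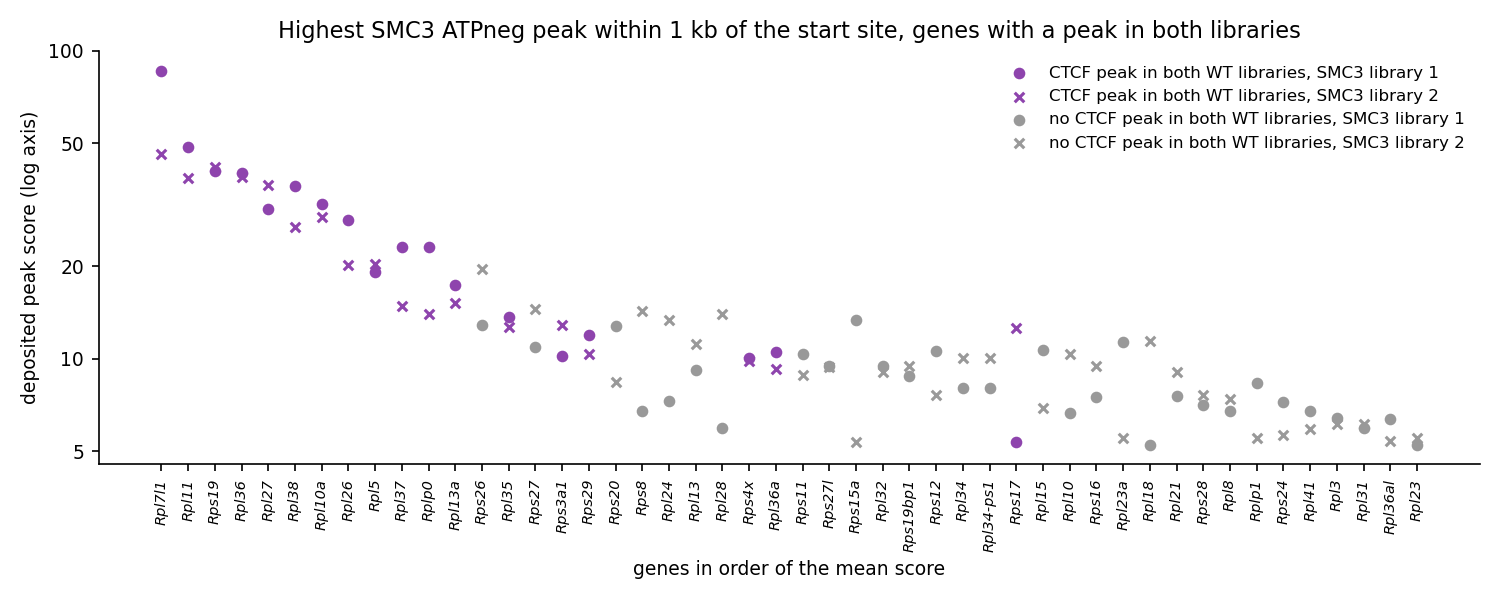
Highest SMC3 peak score within 1 kb of the start in ATPneg cells (peak caller's scale, log vertical axis) for 48 of the ribosomal protein genes with a peak in both libraries, ordered along the horizontal axis by mean score, with circles for library 1 and crosses for library 2. Purple genes had a CTCF peak in both WT libraries and grey genes did not; the 12 leading genes drawn are purple, from Rpl7l1 at 86.2 and 46.2 onwards.

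RAD21, the cohesin subunit that closes the SMC ring, gave no such agreement between libraries. RAD21 peaks lay within 1 kb of the start at 5 and 42 of the 90 genes in the ATPneg libraries, 7 and 3 in KO and 1 and 1 in WT. The 5 genes of ATPneg replicate 1 included Rpl26, Rpl7l1, Rps19 and Rps29. In both libraries of a group the counts were 5 in ATPneg, 1 in KO and 1 in WT, against 3.21%, 0.541% and 0.367% of all genes. Over all genes the single-library shares were 3.68% and 21.3% in ATPneg, so replicate 2 stood apart genome-wide and its list held 35784 peaks against 16375 in replicate 1. At the 10 deposited RAD21 promoter regions, 4 overlapped a peak in both ATPneg libraries, 1 in both KO libraries and 1 in both WT libraries, against 33.7%, 9.47% and 6.16% of all promoter regions.

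The loader and the release factor were scarcely found at these genes. NIPBL peaks lay at 0 and 0 of the 90 genes in ATPneg, with an exact 95% upper limit of 4.02%, at 0 and 1 in KO and at 1 and 2 in WT. WAPL peaks lay at 0 and 1 in ATPneg, 1 and 1 in KO and 2 and 2 in WT. Over all genes, NIPBL peaks in both libraries were found at 0.562% in ATPneg, 0.11% in KO and 1.2% in WT, and WAPL peaks at 0.215% in ATPneg, 2.74% in KO and 1.89% in WT. The shares were thus low over all genes as well. The ATPneg lists were also short, with 14522 and 10224 peaks for NIPBL and 3280 and 4623 for WAPL, against 25979 and 55995 for NIPBL and 76389 and 81317 for WAPL in WT.

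SMC3 reads at promoter regions were higher in KO than in WT cells at 8 of 9 ribosomal protein regions and lower at none (edgeR quasi-likelihood test, adjusted p under 0.05 over all regions). Over all SMC3 promoter regions 75.9% were higher (1256 of 1655) and 2.05% lower, and the median log2 fold change was 3.19 for the 9 regions and 3.04 for all, so the ribosomal protein regions moved as promoters in general did. Each of the 8 overlapped a peak of at least 1 KO library and of no WT library, so that these regions are listed only through their KO peaks and the difference is partly set by that choice. Over SMC3 regions of every kind 22.1% were higher and 18.1% lower. Over all SMC3 regions the split was 17046 higher and 13921 lower, and 21342 and 7483 with background scaling, which is set on the regions with the fewest reads. Values below are CPM, computed from the deposited counts with the TMM-adjusted total of reads in regions. At Rpl11, which binds MDM2 when ribosome assembly is disturbed, the region at chr4:135609253-135609554 (mm9) covers the start and had 15.3 and 14.7 CPM in KO, against 1.31 and 1.31 CPM in WT. These values stand for 64 and 65 reads in KO and 20 and 21 reads in WT, and for 26 and 16 reads in the pooled KO and WT inputs. The groups did not overlap, and the log2 fold change was 3.50 ± 0.23 (SE, n = 2 each; edgeR adjusted p = 0.000571).

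Rpl36 had the largest difference, with 9.54 and 12.2 CPM in KO against 1.11 and 0.563 CPM in WT (log2 3.69 ± 0.39). Rpl7l1 had 13.6 and 16.1 CPM in KO against 1.11 and 1.31 CPM in WT, a log2 fold change of 3.60 ± 0.25. In each case every KO library lay above every WT library. Rplp0, the base of the ribosomal stalk, had 11.2 and 8.82 CPM in KO against 1.11 and 1.06 CPM in WT (log2 3.19 ± 0.28). Rps19 had 9.30 and 11.8 CPM in KO against 1.17 and 1.5 CPM in WT (log2 2.96 ± 0.29). Rpl38, known from the mouse for its part in translating Hox messages, had 12.2 and 13.1 CPM in KO against 2.09 and 1.63 CPM in WT, and Rpl10a had 6.68 and 9.27 CPM against 1.24 and 1.19 CPM. These regions too were separated between the groups. Rps29 was the exception, with 148 and 180 CPM in KO against 1194 and 196 CPM in WT. Its WT libraries differed widely from each other, its log2 fold change of -2.08 ± 0.79 was not called (edgeR adjusted p = 0.0894), and its 364 bp held 355 and 304 reads in the KO and WT inputs, where SMC3 regions had medians of 27.9 and 21.2 input reads per kb.

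**Figure D3:**
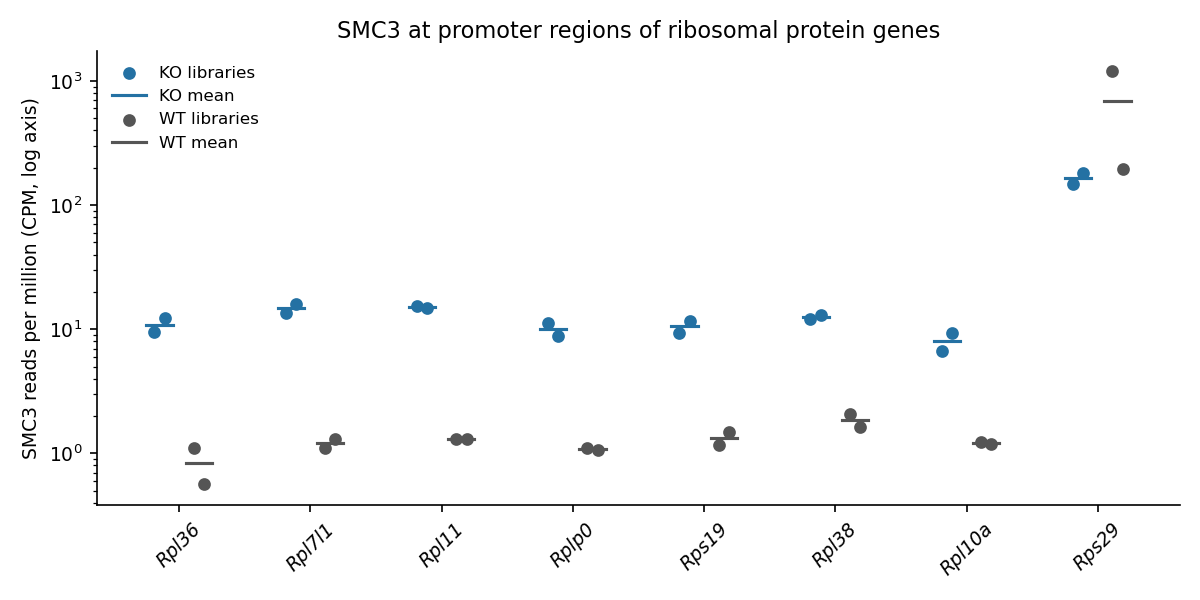
SMC3 reads (CPM, log axis) at 8 promoter regions of ribosomal protein genes, KO libraries left of WT libraries for each gene, 1 point per library with a line at each mean. At 7 regions the KO points lie above the WT points, and at Rps29 the WT points are the higher.

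Away from promoters the SMC3 regions were mixed: of 132 tested, 47 were higher and 13 lower in KO than in WT, where 22.1% of all SMC3 regions were higher and 18.1% lower. With the promoter regions included the counts were 55 higher and 13 lower, 64 and 5 with background scaling, 49 and 4 without KO replicate 1, and 51 and 4 without KO replicate 2. They were 59 and 22 without WT replicate 1, and 63 and 33 without WT replicate 2. Large-subunit genes had 24 higher and 0 lower of 43 regions away from promoters, with a median log2 fold change of 3.12, and small-subunit genes 18 higher and 5 lower of 54, with a median of 0.21. Of the 147 SMC3 regions at any distance, 95 overlapped a peak of at least 1 WT library and 59 of at least 1 KO library. Regions listed only through KO peaks enter these counts, so the directions are partly set by that choice. Its part in the contrast between the subunits was not tested. A region 27130 bp upstream of Rps4x, the X-linked copy of the small-subunit protein S4, at chrX:99410841-99410960 (mm9), had 5.25 and 4.75 CPM in KO against 0.196 and 0.2501 CPM in WT (log2 4.41 ± 0.39). The largest fall was at a region 19711 bp downstream of the start of Rps15a, with 3.10 and 8.37 CPM in KO against 117 and 39.3 CPM in WT. Its log2 fold change was -3.75 ± 0.69 (edgeR adjusted p = 0.00776), and the adjusted p was 0.112 without KO replicate 1 and 0.068 without KO replicate 2. At the same place the libraries labelled H3K27ac had 1.75 and 1.86 CPM under the KO label against 0.191 and 0.330 CPM under the WT label (log2 2.76 ± 0.35), and RAD21 had 4.03 and 0.695 CPM in KO against 6.97 and 15.6 CPM in WT (log2 -2.25 ± 0.84, not called).

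**Figure D4:**
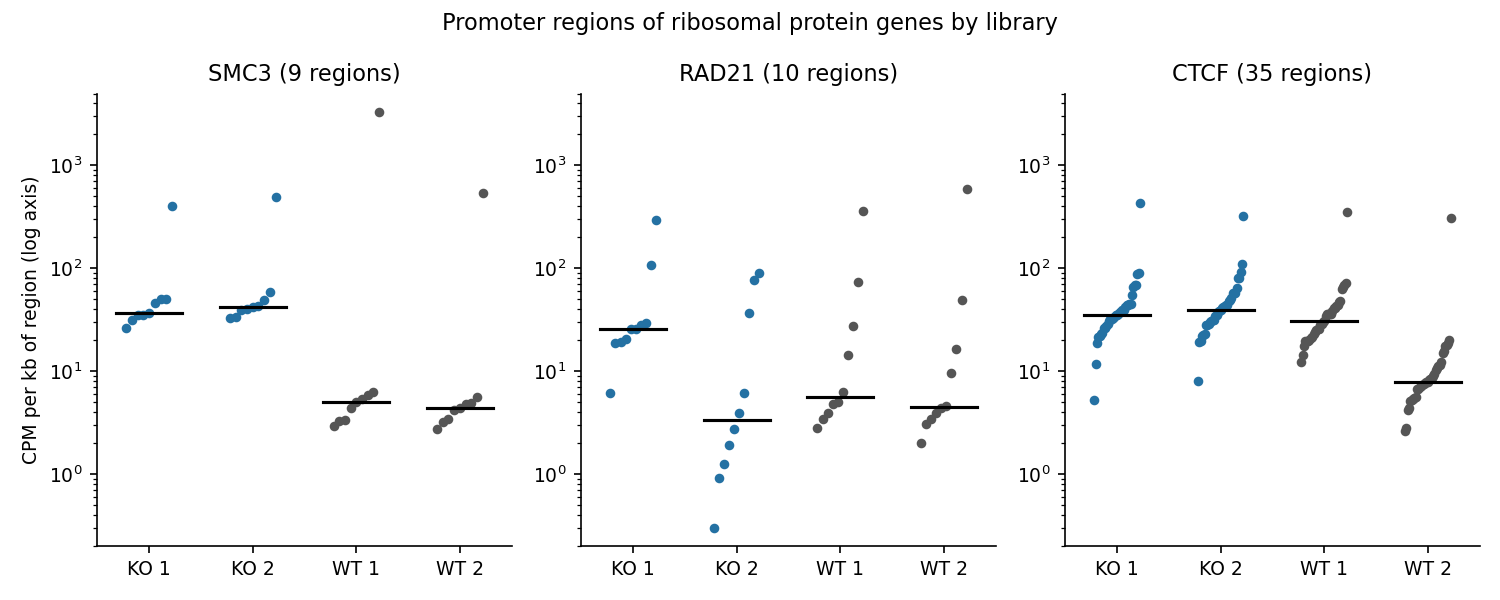
Reads per region length (CPM per kb, log vertical axis) at promoter regions of ribosomal protein genes for SMC3, RAD21 and CTCF, 1 column per library with KO left of WT, a point per region and a line at the median; values under 0.3 are drawn at 0.3. The SMC3 medians are 36.7 and 41.8 in KO against 4.95 and 4.35 in WT, RAD21 KO 1 lies above the other RAD21 libraries, and CTCF WT 2 lies below the other CTCF libraries.

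RAD21 reads at ribosomal protein promoters were not separated between genotypes, and the KO libraries differed from each other. The median over the promoter regions was 25.7 and 3.30 CPM per kb in KO against 5.64 and 4.46 CPM per kb in WT. None of 9 tested regions was called in either direction by edgeR, 0 passed an unadjusted p of 0.05, and DESeq2 called 0, with 3 under an unadjusted 0.05. Over all RAD21 promoter regions 2.81% were higher and 1.61% lower. Without KO replicate 2 the count was 6 higher, and without KO replicate 1 it was 1 higher and 1 lower. The Rpl11 region had 8.59 and 0.556 CPM in KO against 1.84 and 1.34 CPM in WT. Of 120 ribosomal protein regions at any distance, 5 were higher and 17 lower, against 2.3% and 21.1% of all regions. The balance was the other way with DESeq2, which gave 20 higher and 2 lower, and over all regions 10617 and 3611 in place of 1954 and 17897; with edgeR, library totals gave 5 higher and 16 lower and background scaling 0 and 0. A region 64775 bp from Rplp1, a stalk protein, was higher in KO, with 3.62 and 5.70 CPM against 1.00 and 1.34 CPM in WT (edgeR adjusted p = 0.044). A region 195721 bp from Rps29 was lower in KO, with 0.134 and 0.139 CPM against 2.05 and 2.23 CPM in WT (edgeR adjusted p = 0.0433). Neither call held without a WT library, where the adjusted p lay between 0.334 and 0.36.

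NIPBL and WAPL had 2 and 3 promoter regions, at Rps29, Rpl26 and, for WAPL, Rps26. No NIPBL region at any distance was called by edgeR among 72, with 13 under an unadjusted 0.05, and DESeq2 called none of them; over all NIPBL regions 0.995% were higher and 0.63% lower, and over promoter regions 3.17% and 0.0%. Whether the reads of NIPBL KO replicate 2 and WT replicate 1 are exchanged as their peak names are was not tested. At Rps29 NIPBL had 157 and 329 CPM in KO against 152 and 113 CPM in WT. WAPL at Rps29 had 94.1 and 132 CPM in KO against 54.7 and 37.1 CPM in WT, which was called higher (log2 1.30 ± 0.24, edgeR adjusted p = 0.0115). At Rpl26, a regulator of p53 translation, WAPL had 14.2 and 12.8 CPM in KO against 7.99 and 9.10 CPM in WT and was called higher (log2 0.66 ± 0.15). At Rps26 it had 6.65 and 5.66 CPM in KO against 11.3 and 14.1 CPM in WT and was called lower (log2 -1.04 ± 0.18). Over all WAPL promoter regions 19.3% were higher and 4.58% lower. At any distance 28 of 159 ribosomal protein regions were higher and 42 lower, against 13.1% and 27.6% of all WAPL regions. With background scaling these counts were 68 higher and 28 lower, and without either KO library 0 higher and 4 lower. None of the 3 calls held without a KO library, and the Rps29 and Rpl26 regions lie over many input reads, 162 and 157 in 113 bp at Rpl26.

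CTCF was the factor with most ribosomal protein promoter regions among the 5 chromatin proteins, and none of the 35 was called in either direction in KO against WT (edgeR; 1 under an unadjusted 0.05; DESeq2 called 0). WT replicate 2 stood apart, with a list of 67796 peaks against 21429 in WT replicate 1 and 26210 and 28098 in KO. The median over the 35 regions was 35.2 and 38.9 CPM per kb in KO against 30.7 and 7.82 CPM per kb in WT. Rplp0 had 50.5 and 61.9 CPM in KO against 50.9 and 11.6 CPM in WT, and Rpl11 had 15.8 and 16.5 CPM in KO against 17.2 and 4.35 CPM in WT. In both, WT replicate 1 lay near the KO libraries and WT replicate 2 below them. Rpl5, a partner of Rpl11 in the 5S particle, had 43.3 and 50.6 CPM in KO against 30.6 and 9.84 CPM in WT. Rps19 had 18.9 and 18.3 CPM in KO against 18.5 and 5.18 CPM in WT, and Rpl22, needed by T-cell precursors of the mouse, had 4.72 and 7.88 CPM in KO against 4.96 and 1.79 CPM in WT. The highest region, at Rps29, had 277 and 211 CPM in KO against 230 and 199 CPM in WT, where the groups overlap. Of the 35 regions, 34 overlapped a peak of at least 1 KO library and 24 of at least 1 WT library. Over all tested CTCF promoter regions the log2 fold change was positive at 3316 of 4489, with a median of 0.83. At the ribosomal protein promoters it was positive at 34 of the 35 regions, with a median of 0.98, and Rps4y2 was the exception at -0.92. Without WT replicate 2 the count was 1 higher and 1 lower and the median log2 fold change 0.27; without WT replicate 1 it was 33 higher. The background was 0% of CTCF promoter regions in either direction, and 0.00792% and 0.0317% of all CTCF regions. The CTCF peaks counted at start sites above were present in both WT libraries.

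The libraries labelled H3K4me1 gave the most promoter regions, 73 at 66 genes. Of these, 69 were lower and 1 higher under the KO label than under the WT label, with a median log2 fold change of -1.62. Over all promoter regions 56.1% were lower and 10.6% higher, with a median of -0.78. Under the WT label 72 of the 73 overlapped a peak of at least 1 library, and under the KO label 11. Over all 9713 promoter regions the counts were 8338 and 4313. Most of the 73 are thus listed only through WT-label peaks, and the direction is partly set by that choice. Large-subunit genes had 40 lower and 1 higher of 44 regions, and all 26 small-subunit regions were lower. The median over the regions was 2.04 and 1.99 CPM per kb under the KO label against 6.08 and 6.17 CPM per kb under the WT label. At Rpl4, a core protein of the large subunit, the libraries had 0.122 and 0.116 CPM under the KO label against 1.46 and 1.85 CPM under the WT label (log2 -3.74). At Rps6, the substrate of the S6 kinases, they had 1.34 and 0.755 CPM under the KO label against 7.20 and 7.69 CPM under the WT label (log2 -2.84). At Rpl11 they had 3.52 and 4.13 CPM under the KO label against 9.88 and 10.8 CPM under the WT label (log2 -1.43). At each of these genes the groups were far apart. At Rps19, in a region 331 bp upstream of the start, they had 0.243 and 0.174 CPM under the KO label against 1.36 and 2.08 CPM under the WT label, and at Rpl7 they had 0.182 and 0.349 CPM against 2.02 and 2.35 CPM. The log2 fold changes were -3.04 and -3.01 at these regions. A second promoter region of Rps19 fell less, with a log2 fold change of -0.78 (edgeR adjusted p = 0.00677). Smaller falls were called at Rps27a, which encodes a ubiquitin fusion, at -2.11, at the stalk genes Rplp1 at -2.10, Rplp0 at -1.40 and Rplp2 at -1.35, and at Rps3 at -1.74 and Rpl5 at -1.69. The only region called higher lay 991 bp downstream of the start of Rpl36, with 3.10 and 3.66 CPM under the KO label against 1.41 and 1.65 CPM under the WT label. The other promoter region of Rpl36 was called lower. The 3 regions with no call were at Rpl22, Rpl12 and Rpl23a, with log2 fold changes of 0.23, -0.19 and -0.88. Of other groups, 16 of 19 translation factor regions, 16 of 21 biogenesis regions, 15 of 17 B-cell gene regions and 27 of 44 mitochondrial ribosomal protein regions were lower, as were all 4 regions of snoRNA host genes and all 4 of ribosomal genes outside the symbol pattern. None of the 2 T-cell, 1 myeloid and 1 erythroid regions was lower. The names of the lists labelled H3K4me1 KO match their label and those labelled H3K4me1 WT do not, so a difference of antibody and a difference of genotype cannot be told apart here.

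**Figure D5:**
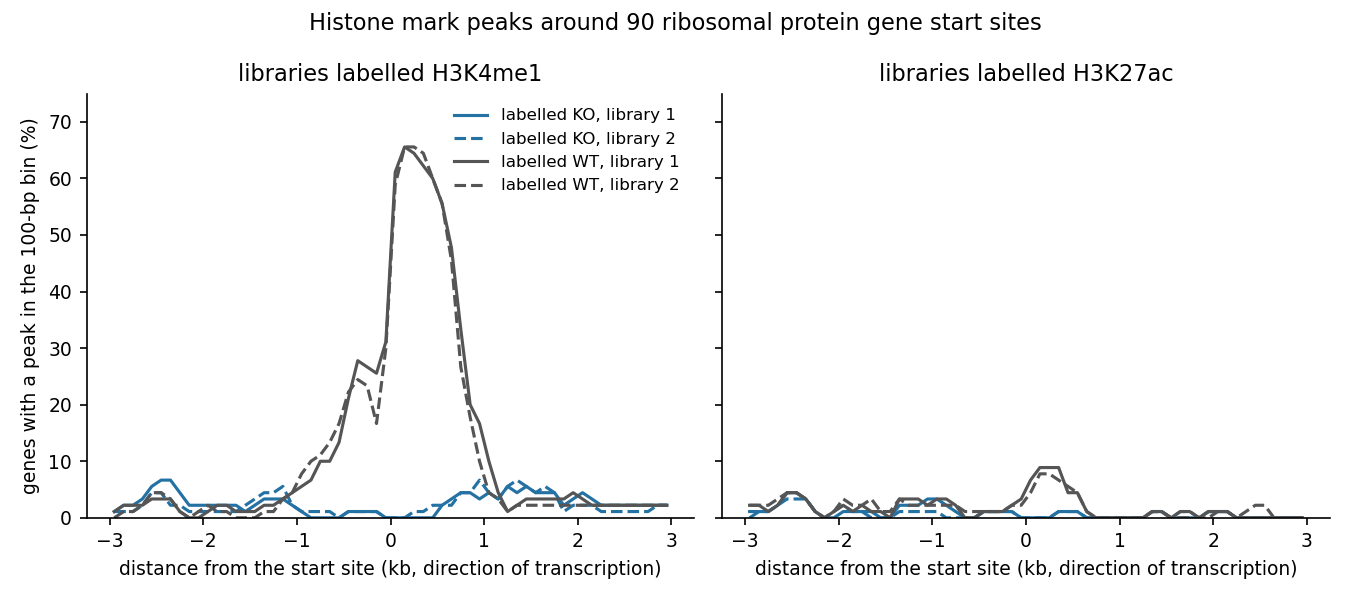
Share of the 90 ribosomal protein genes (percent, vertical axis) with a peak over each 100 bp bin around the start (kb, horizontal axis) in the libraries labelled H3K4me1 and H3K27ac, KO and WT. The libraries labelled H3K4me1 WT reach 65.6% at 100 to 200 bp downstream of the start, and the other histone libraries stay well below.

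The peak lists gave the same order, with peaks within 1 kb of the start at 6 and 9 of the 90 genes in the libraries labelled H3K4me1 KO and at 64 and 66 in those labelled H3K4me1 WT. Both libraries had a peak at 3 genes under the KO label and 59 under the WT label, against 9.85% and 27.6% of all genes. In the libraries labelled H3K27ac the counts were 6 and 3 under the KO label and 14 and 12 under the WT label, with 3 and 9 genes in both libraries, against 9.03% and 15.1% of all genes. Of 14 tested promoter regions of the H3K27ac tables, 2 were higher and 5 lower under the KO label, against 8.48% and 22.2% of all promoter regions. Away from promoters 25 of 280 tested regions were higher and 19 lower for the label H3K4me1, with a median log2 fold change of 0.08. For the label H3K27ac 19 of 327 were higher and 31 lower. At any distance 21 regions were higher and 36 lower for the label H3K27ac, against 5.9% and 10.6% of all regions, and 26 were higher and 88 lower for the label H3K4me1, against 6.44% and 9.98%. With library totals as the scaling they were 30 higher and 27 lower for H3K27ac, so that this balance turned, and 33 and 80 for H3K4me1; over all regions library totals gave 22208 higher and 15990 lower for H3K27ac, against 13880 and 24903 with TMM, and 16809 and 14208 for H3K4me1, against 11573 and 17921 with TMM. The regions at Rps29 (17.8 and 18.9 CPM under the KO label against 3.02 and 4.08 CPM under the WT label, log2 2.36) and Rps15a (0.877 and 0.932 CPM against 0.229 and 0.367 CPM, log2 1.58) were higher. Those called lower included Rpl9, Rpl23 and Rpl34, with log2 fold changes of -2.18, -1.65 and -1.28. The Rpl9, Rpl23 and Rpl34 regions overlapped peaks under the WT label only, and the Rps15a region under the KO label only. For these genes the direction is thus partly set by the list that gave the region. The Rps15a and Rpl23 regions hold few reads, and without 1 library of either label the adjusted p of Rps15a lay between 0.0501 and 0.0718 for 3 of the 4 libraries.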

How the data were processed

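The series holds 40 samples, 36 ChIP-seq libraries and 4 inputs, of which 2 replicates were described per group. Peak lists, merged-region tables of raw counts, input-subtracted counts (scores) and subtracted counts scaled by 1 constant per library (normalized signal) were deposited by the authors; the peak lists hold a score per peak. Per the submitters' processing notes reads were mapped to mm9; the tools named are edgeR, featureCounts, MACS2, BWA, bedtools and Picard, with versions not given in the sources used here; 2 columns of an external input in the histone tables were not used. Regions were assigned to the nearest gene in the deposited annotation, and the start sites of 23676 genes were recovered from its distances. Promoter regions lie within 1000 bp of a start.

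KO was tested against WT on the deposited counts with edgeR 4.0.16 in R 4.3.3 (TMM scaling, filterByExpr, quasi-likelihood test, Benjamini-Hochberg adjustment over all regions of a target, threshold 0.05). SEs are the log2 fold change over the root of F. ATPneg libraries have no counts in these tables and were compared by peaks, with an overlap of 1 bp or more and exact Clopper-Pearson intervals, which cover counting error only. Named regions are, per target, up to 4 with the largest change in each direction among those called with the groups apart, a list of 11 genes, and the 3 regions with most reads; other genes were chosen after their values were seen. The script was tested on simulated data. The values of 2 genes are not reported here by name and not drawn singly, but enter the counts. The members and lists were chosen with earlier results of these data known. Alternatives were DESeq2 1.42.0, other scalings, no filter, input-subtracted counts, a narrower window, a replicate block and leaving out each library. The edgeR p-values rest on the spread between 2 libraries per group, moderated toward a trend over all regions of the target.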

Additional observations from a re-analysis of the deposited data

How the results depend on the processing

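The SMC3 count of 8 higher regions was 8 under every alternative tried except the 200 bp window, where it was 6 of fewer regions, with a median log2 fold change between 3.14 and 3.59 apart from 5.62 on input-subtracted counts, while the median of all SMC3 regions moved between -0.37 and 0.18; 1 region (Rps29) was lower with library totals and 0 to 1 when leaving out 1 library. For RAD21, leaving out 1 library gave 0 to 6 higher and 0 to 1 lower, with medians from -0.40, without KO replicate 1, to 1.57; over all regions edgeR called 1954 higher and 17897 lower, DESeq2 10617 and 3611, and background scaling, no filter, input-subtracted counts and the replicate block called 0. For NIPBL the higher count was 1 with background scaling, 2 with the replicate block and 0 to 1 leaving out 1 library, and the median was -3.31 on input-subtracted counts; at any distance 9 of its ribosomal protein regions were lower with library totals, and over all regions the lower count was 388, 6283 with library totals and 3741 with the block. For WAPL the higher count was 1 with DESeq2, on input-subtracted counts and within 200 bp, and 0 to 2 leaving out 1 library; the lower count was 0 within 200 bp and 0 to 1 leaving out 1 library; over all regions 16498 were higher and 34829 lower, and with background scaling 50486 and 24440. For CTCF, leaving out 1 library gave 0 to 33 higher and 0 to 1 lower. For the label H3K27ac, the higher count was 1 with DESeq2 and within 200 bp and 1 to 2 leaving out 1 library, and the lower count 0 with DESeq2, which tested 4, and 4 to 5 leaving out 1 library; over all regions DESeq2 called 2647 higher and 9504 lower, and for the label H3K4me1 2839 and 8056. For the label H3K4me1 the higher count was 0 within 200 bp. ATPneg peak counts in both libraries were, for SMC3, 9 of 9 at promoter regions and 50 of 90 genes at start sites. For RAD21 they were 2 with the score cut-off, 7 in either library and 4 to 7 leaving out 1 library. For WAPL they were 1 in either library and 0 to 1 leaving out 1 library. In WT they were 0 with the score cut-off, 2 in either library and 1 to 2 leaving out 1 library for NIPBL, and 0, 3 and 2 to 2 for WAPL. Of 40 named regions, 10 and 8 lost their call without KO replicate 1 and 2, and 4 each without a WT library. Same-numbered libraries did not deviate together (correlations of -0.22 to 0.030), so the replicate block, which changed the NIPBL count and ended 2 of the named calls, both for RAD21, is no paired test; a block with crossed numbers for CTCF, chosen after seeing the data like the start-site counts, called 25 regions higher and 89 lower. The cause of these shifts was not tested. CTCF WT replicate 1 and the KO libraries of SMC3, NIPBL and CTCF have the fewest reads in regions.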
